A study of Mus musculus with 24 samples.

Results

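The comparison described here is the effect of a high fat diet (HFD) on brown adipose tissue (BAT) of knockout mice, chosen by sample title: 3 arrays labelled knockout and HFD against 3 labelled knockout and standard diet (SD), 6 of 24 arrays in the series. The groups were Gfap-Bmal1 cKO mice on HFD and Gfap-Bmal1 cKO mice on SD. All 6 arrays therefore share the conditional deletion of Bmal1, the clock transcription factor listed here under the symbol Arntl, and each diet lasted 16 weeks. Control mice on HFD and on SD, 3 arrays each, were measured in the same tissue and were used for the spread of the fit and for 1 test of the difference between genotypes. Gfap is a gene of astrocytes and other glia, so the name of the line points to a deletion in glial cells rather than in brown adipocytes. Where the deletion occurred was not tested in these data. The labels give no strain, age or sex, and leave unsaid whether each array is its own mouse; the p-values below rest on array-to-array spread alone, part of which may be technical. RNA came from 20 mg of BAT per the labels.

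Brown fat burns fatty acids and glucose to make heat. Its mitochondria carry uncoupling protein 1 (Ucp1), which lets protons flow back without making ATP. High fat feeding is known to load brown adipocytes with lipid and to change their lipid synthesis, and fat depots of obese mice are known to gain macrophages, which take up dead adipocytes and their lipid through lysosomes. The proteasome, which degrades tagged proteins, is known from work in mice to be needed for thermogenic function of brown fat, under the transcription factor Nfe2l1.

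All values are log2 signals as deposited, and a difference is HFD minus SD in cKO mice on that scale, so 1 unit is a doubling. Array medians over all features lay between 4.069 and 4.158, and signals stopped at 19.9315, a ceiling reached by 32 to 40 of the 17124 genes tested on each array. Arrays of BAT correlated at 0.891 to 0.996, and no pair was identical. Arntl was at 6.87, 7.07 and 6.47 in the HFD arrays, against 6.16, 5.8 and 7.24 in the SD arrays, and at 6.29, 6.41 and 6.69 in control HFD and 5.84, 5.83 and 6.34 in control SD arrays. The groups overlap, and the difference was 0.4 ± 0.34 (SE, adjusted p = 0.477); a level in whole tissue is no check of a deletion in glia. The single feature of Gfap averaged 3.54 over the 12 arrays and did not reach the filter on low signals.

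The 6 cKO arrays differed first in skeletal muscle signal. A score averaging 38 genes of skeletal muscle was 5.41, 8.32 and 10.63 in the HFD arrays, against 12.36, 15.5 and 14.57 in the SD arrays. Every HFD array lay below every SD array, with a difference of -6.02 in the mean, and the exact two-sided permutation p of 0.1 is the smallest that 3 against 3 arrays can give. All 38 muscle genes were lower without overlap, against 13.5% of all genes, with a median difference of -6.73. These genes make up the score, so their count restates it. Myh7, the myosin heavy chain of slow fibres, was at 4.65, 5.05 and 9.18 in the HFD arrays, against 11.8, 15.25 and 13.97 in the SD arrays. The control arrays spanned the same range, with scores of 6.07, 5.35 and 7.61 on HFD and 14.91, 5.3 and 14.44 on SD. The first principal component of the 12 arrays held 72.2% of the variance and followed this score (Pearson r = 0.959 across 12 arrays, a description with no test). Whether the muscle signal came from the animals or from dissection was not tested. In pieces of tissue, fewer cells of a type and less RNA per cell cannot be told apart. The gene lists below, and many of the genes, are therefore also given from a fit with the muscle score as a linear covariate, called the muscle-adjusted fit.

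**Figure D1:**
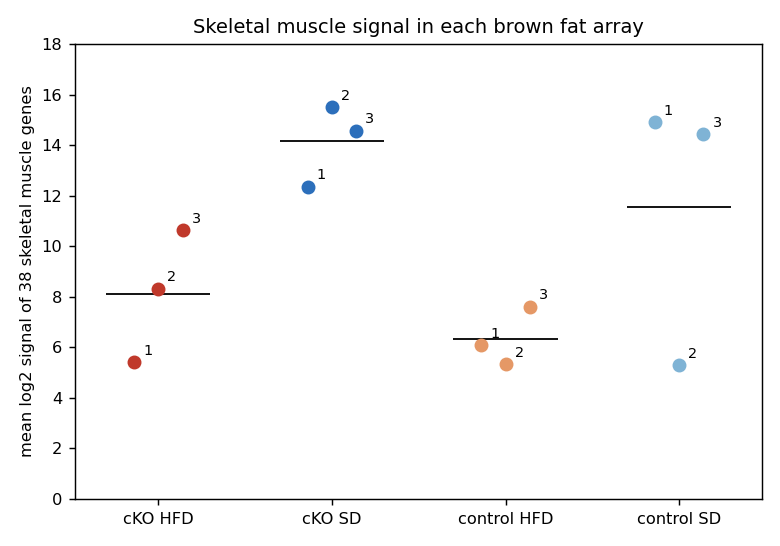
Mean log2 signal of 38 skeletal muscle genes (y axis) in each of the 12 brown fat arrays, grouped by genotype and diet on the x axis. Points are arrays with their replicate number and lines are group means; the 3 cKO HFD arrays sit between 5.41 and 10.63, below the cKO SD arrays at 12.36 to 15.5, and control SD array 2 lies at 5.3.

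The brown fat markers differed most among the SD arrays. Ucp1 sat at the ceiling in all 3 HFD arrays, against 19.93, 16.3 and 19.31 in the SD arrays. Since the HFD side is saturated and an SD array is too, no fold is given. Cidea, a lipid droplet protein of brown adipocytes, was at 18.35, 18.67 and 18.39 in the HFD arrays, against 18.36, 13.08 and 16.57 in the SD arrays. Otop1, a proton channel enriched in brown fat, was at 13.55, 14.56 and 14.22 in the HFD arrays, against 13.66, 7.84 and 11.3 in the SD arrays. SD array 2, the one richest in muscle, held the lowest value of all 3 genes, and SD array 1 held values like those of the HFD arrays. Adipoq, the adipocyte hormone adiponectin, was at 13.36, 13.68 and 13.69 in the HFD arrays, against 13.48, 12.94 and 13.5 in the SD arrays, and Lep, the hormone leptin, at 11.89, 10.06 and 12.997 in the HFD arrays, against 10.4, 11.92 and 12.53 in the SD arrays, with overlap in both. Ucp1 and Cidea thus lay far above the array medians in all 6 cKO arrays. Otop1 in SD array 2, at 7.84, was near that array's mean of 7.42 over all genes tested. Elovl3, given below, was under that mean in the same array.

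No gene passed an adjusted p of 0.05 for the diet effect in cKO mice (0% of 17124 tested, limma with Benjamini-Hochberg adjustment). The lowest adjusted p was 0.0665, and 50 genes lay under 0.1, of which 32 were higher on HFD and 18 lower. At an unadjusted p under 0.05 there were 2050 genes higher (12% of those tested) and 1870 lower (10.9%), 22.9% together. Arrays of the diets did not overlap for 2649 genes higher on HFD (15.5%) and 2311 lower (13.5%). The median difference over all genes was 0.04. In the muscle-adjusted fit no gene passed either, with a lowest adjusted p of 0.478; 655 genes were higher at an unadjusted p under 0.05 (3.83%) and 729 lower (4.26%, 8.08% together), 49.1% of differences were positive, and the median was -0.0043. Both fits shared 937 genes at that unadjusted level with the same sign, 494 higher and 443 lower. The count past the threshold rested on the SD arrays: without cKO SD array 1 it was 1183, and without control SD array 2, which enters only through the spread, it was 210.

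Among named genes the highest statistics belonged to Cdh9, Pltp, Plscr2, Msn, Slc41a2, Abcg1, Ly96 and Mpeg1. Pltp, phospholipid transfer protein, was at 13.11, 13.25 and 13.21 in the HFD arrays, against 10.83, 10.4 and 10.69 in the SD arrays. The HFD arrays lay close together and more than 2 units above every SD array, a difference of 2.55 ± 0.3 (SE, adjusted p = 0.0665). Pltp was at 12.6, 12.56 and 12.35 in control HFD and 9.97, 11.48 and 10.78 in control SD arrays. Cdh9, a cadherin of cell contacts, was at 7.52, 7.47 and 6.86 in the HFD arrays, against 5.81, 5.26 and 5.02 in the SD arrays, again without overlap, and differed by 1.92 ± 0.22 (SE, adjusted p = 0.0665). Msn, moesin, which ties actin to the cell membrane, was at 12.45, 12.6 and 12.63 in the HFD arrays, against 11.63, 10.9 and 11.07 in the SD arrays and differed by 1.36 ± 0.18 (SE, adjusted p = 0.0665). Plscr2, of the phospholipid scramblase family, differed by 0.87 ± 0.11 (SE, adjusted p = 0.0665), Slc41a2, of a family of magnesium transporters, by 0.98 ± 0.14 (SE, adjusted p = 0.0833), and Abcg1, which exports cholesterol from cells, by 0.79 ± 0.12 (SE, adjusted p = 0.0833). Ly96, the partner of Toll-like receptor 4 in sensing lipopolysaccharide, was at 11.85, 12.3 and 11.4 in the HFD arrays, against 10.63, 9.8 and 9.63 in the SD arrays and differed by 1.83 ± 0.28 (SE, adjusted p = 0.0833). Cdh9, Pltp and Plscr2 also had statistics among the 8 highest of the muscle-adjusted fit, with differences of 1.74, 1.97 and 0.72.

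Among named genes the lowest statistics belonged to Myh10, Tet2, Selenbp1, Prodh, Bcat2, Selenbp2, Mpst and Ces1f. Selenbp1, which oxidises methanethiol, was at 8.31, 8.09 and 7.82 in the HFD arrays, against 9.11, 9.11 and 9.01 in the SD arrays. The diets did not overlap, and the difference was -1.0 ± 0.16 (SE, adjusted p = 0.0883). Its close copy Selenbp2 differed by -0.86 ± 0.15 (SE, adjusted p = 0.0891); the probes of such near-identical genes may share signal. Both were among the lowest of the muscle-adjusted fit too, at -1.18 and -1.08. Prodh, proline dehydrogenase, was at 6.33, 6.32 and 6.1 in the HFD arrays, against 7.02, 6.99 and 6.72 in the SD arrays and differed by -0.66 ± 0.11 (SE, adjusted p = 0.0883). Mpst, a sulphur transferase, differed by -0.49 ± 0.09 (SE, adjusted p = 0.0891), at levels close to the array medians. Tet2, which oxidises methylated cytosine, was at 7.63, 7.46 and 7.24 in the HFD arrays, against 8.1, 8.19 and 8.21 in the SD arrays and differed by -0.73 ± 0.11 (SE, adjusted p = 0.0883). Myh10, a non-muscle myosin, was at 6.96, 6.88 and 6.9 in the HFD arrays, against 8.2, 8.62 and 8.42 in the SD arrays and differed by -1.5 ± 0.23 (SE, adjusted p = 0.0833). Ces1f, a carboxylesterase, was at 8.61, 8.85 and 8.68 in the HFD arrays, against 9.8, 9.89 and 10.83 in the SD arrays, a difference of -1.46 ± 0.26 (SE, adjusted p = 0.0915). In the muscle-adjusted fit Kmt2e, a chromatin protein, and Ppm1b, a phosphatase, came in at -0.76 and -0.6, with unadjusted p of 0.000245 and 0.000221. Med13l, a Mediator subunit, was at 9.05, 8.5 and 8.48 in the HFD arrays, against 8.79, 8.33 and 8.73 in the SD arrays, so its raw difference of 0.06 and its muscle-adjusted -0.68 have opposite signs.

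Macrophage genes were higher on HFD in cKO brown fat. Of 28 genes listed, 26 were tested and 23 had a positive difference, with a median of 0.85; 14 were higher at an unadjusted p under 0.05 and 13 did not overlap between diets, against 12% and 15.5% of all genes, and none was lower at that level. The mean over the list was 7.61, 7.54 and 6.95 in the HFD arrays, against 6.32, 6.56 and 6.24 in the SD arrays. Ctss, cathepsin S, which trims proteins for antigen presentation, was at 11.58, 12.75 and 11.06 in the HFD arrays, against 8.28, 8.86 and 7.9 in the SD arrays. Its difference of 3.45 ± 0.58 (SE, adjusted p = 0.0883) is about 10.9-fold on the linear scale. Cd68, a glycoprotein of macrophage endosomes, was at 9.07, 9.13 and 8.89 in the HFD arrays, against 6.56, 6.79 and 6.28 in the SD arrays and differed by 2.49 ± 0.42 (SE, adjusted p = 0.0883). Mpeg1, the pore-forming perforin-2 of phagocytes, was at 7.8, 9.52 and 8.15 in the HFD arrays, against 5.91, 6.02 and 5.55 in the SD arrays and differed by 2.67 ± 0.41 (SE, adjusted p = 0.0846). In all 3 genes the lowest HFD array was more than 1 unit above the highest SD array, and their muscle-adjusted differences were 3.87, 2.88 and 2.94.

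The other phagocyte genes showed smaller gaps. Lyz2, lysozyme, was at 13.7, 14.36 and 12.72 in the HFD arrays, against 11.4, 11.82 and 11.14 in the SD arrays. Adgre1, a surface marker of mouse macrophages, was at 7.96, 8.33 and 7.34 in the HFD arrays, against 6.48, 6.68 and 6.3 in the SD arrays, a difference of 1.39 ± 0.36 (SE, adjusted p = 0.104). The complement genes C1qb, C1qc and C1qa differed by 2.22, 1.02 and 0.83, with adjusted p of 0.103, 0.114 and 0.144. Those 3 encode the chains of C1q, a recognition molecule made by tissue macrophages. Mmp12, macrophage elastase, was at 4.44, 6.31 and 6.8 in the HFD arrays, against 4.1, 4.09 and 4.79 in the SD arrays, and Gpnmb, a transmembrane glycoprotein, at 6.33, 8.45 and 7.72 in the HFD arrays, against 5.49, 6.74 and 6.63 in the SD arrays. HFD array 1 was the lowest HFD array in both, while its mean over the whole list was the highest. Csf1r, the receptor for the growth factor of macrophages, was at 8.53, 8.01 and 7.08 in the HFD arrays, against 7.25, 7.71 and 6.91 in the SD arrays, and Mrc1, the mannose receptor, at 14.35, 11.11 and 10.63 in the HFD arrays, against 10.99, 11.86 and 10.92 in the SD arrays, both with overlap. Cd163, the haemoglobin scavenger receptor of resident macrophages, had a negative difference of -1.07 ± 0.9 (SE, adjusted p = 0.481). In all, 3 of 26 members were lower in the mean.

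**Figure D2:**
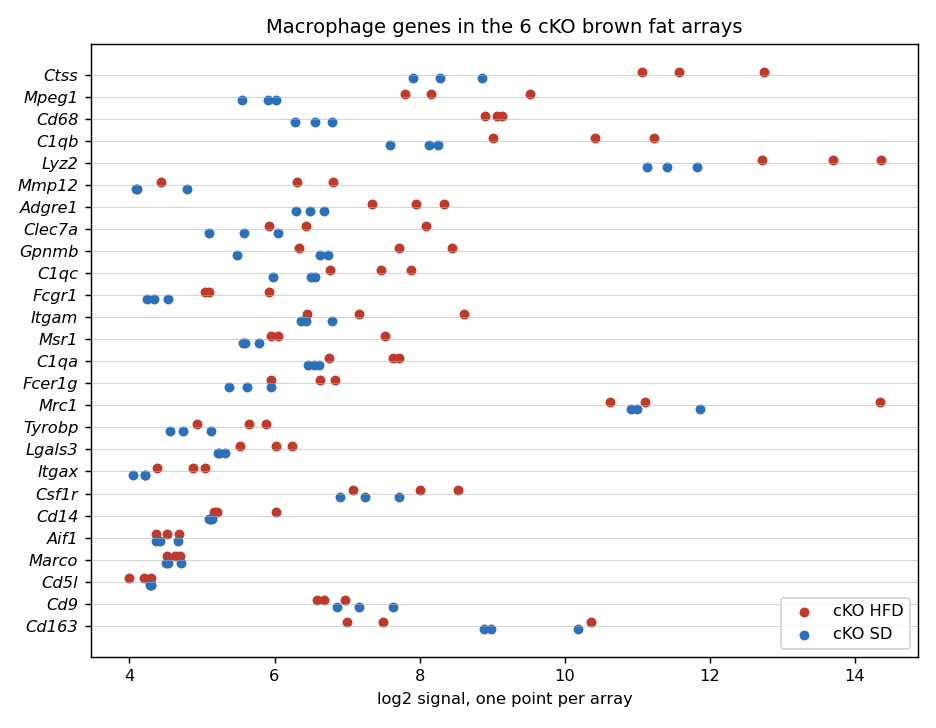
Log2 signal (x axis) of the 26 macrophage genes tested (y axis, ordered by difference) in the 3 cKO HFD arrays and the 3 cKO SD arrays, 1 point per array. Ctss, Mpeg1 and Cd68 at the top separate the diets by more than 1 unit, while Mrc1, Csf1r and Cd163 overlap.

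The macrophage median was no smaller with the muscle covariate, a fit that cannot separate diet from muscle in the cKO arrays. In the muscle-adjusted fit the list's median was 1.0 and 13 genes were higher at an unadjusted p under 0.05 (3.83% of all genes), with 1 lower, Cd5l. Leaving out each cKO array in turn gave medians of 0.68 to 1.12. Without the 4 arrays richest in muscle, which leaves cKO SD array 1 as the lone SD array of its genotype, the median was 0.89 and 7 genes were higher at that level, against 4.24% of all genes (6.14% lower, 50.8% positive, and 0.0234% past an adjusted p of 0.05). HFD array 3 and SD array 1 are the pair of opposite diets nearest in muscle score, at 10.63 and 12.36; between these 2 arrays 20 of 26 macrophage genes were higher on HFD, by a median of 0.39, with no test possible. Ctss was 11.06 in the first and 8.28 in the second. Control SD array 2, whose muscle score of 5.3 is the lowest of all 12, had the lowest mean macrophage signal, at 5.68. Other immune cells gave weaker signals. Of 22 genes of lymphocytes and antigen presentation 10 were tested, with a median of 0.32 and 4 higher at an unadjusted p under 0.05, and of 22 interferon genes 19 were tested, with a median of 0.29 and 7 higher, against 12% of all genes. With the muscle covariate none of either list was at that level.

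Lysosomal genes were higher on HFD too. Of 25 listed, 22 were tested; 19 differences were positive (56.5% of all genes), the median was 0.89, and 12 genes were higher at an unadjusted p under 0.05 (12% of all genes) with none lower. Grn, progranulin, which supports lysosomal enzymes, was at 9.22, 9.76 and 9.8 in the HFD arrays, against 8.42, 8.27 and 8.23 in the SD arrays and differed by 1.29 ± 0.25 (SE, adjusted p = 0.101). Npc2, which hands cholesterol out of the lysosome, was at 9.43, 10.07 and 9.67 in the HFD arrays, against 8.49, 7.61 and 7.95 in the SD arrays and differed by 1.71 ± 0.37 (SE, adjusted p = 0.103). Ctsb, cathepsin B, was at 18.94, 18.98 and 18.87 in the HFD arrays, against 18.23, 16.94 and 17.56 in the SD arrays. None of these 3 overlapped between diets, and their muscle-adjusted differences were 1.39, 1.17 and 0.76. Atp6v0d2, a proton pump subunit of macrophages and osteoclasts, was at 4.45, 8.17 and 7.77 in the HFD arrays, against 4.03, 4.24 and 4.82 in the SD arrays, so HFD array 1 resembled the SD arrays. Lipa, the lysosomal acid lipase, was at 13.83, 15.13 and 15.07 in the HFD arrays, against 14.02, 10.09 and 12.25 in the SD arrays, with SD array 2 lowest, and its difference was 2.56, and 0.79 with the muscle covariate. Tfeb, a transcription factor of lysosomal genes, was at 5.44, 5.44 and 5.44 in the HFD arrays, against 5.43, 5.82 and 5.77 in the SD arrays. The list's median was 0.78 in the muscle-adjusted fit, with 22 of 22 differences positive and 7 at an unadjusted p under 0.05 (3.83% of all genes), and 0.51 between HFD array 3 and SD array 1, where 20 of 22 were higher. The list averaged 10.99, 11.36 and 11.11 in the HFD arrays, against 10.44, 10.05 and 10.14 in the SD arrays. Within the diets its order differed from that of the macrophage list: HFD array 1 was highest of the HFD arrays for macrophage genes and lowest for lysosomal genes, and SD array 2 likewise among the SD arrays.

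Subunits of the proteasome were higher on HFD in every case. All 28 genes tested of 29 listed, 27 subunits and Nfe2l1, had a positive difference, where 56.5% of all genes did. The median was 0.72 and the range 0.2 to 1.63. At an unadjusted p under 0.05 there were 18 genes higher and none lower, against 12% and 10.9% of all genes. The diets did not overlap for 22 genes, all higher on HFD, against 15.5% of all genes. The list averaged 10.91, 11.35 and 11.23 in the HFD arrays, against 10.48, 10.4 and 10.31 in the SD arrays. Psmd14, the deubiquitinase of the regulatory lid, was at 9.55, 9.999 and 9.97 in the HFD arrays, against 8.5, 7.95 and 8.19 in the SD arrays and differed by 1.63 ± 0.38 (SE, adjusted p = 0.103). Psmc4, an ATPase of the regulatory base, was at 10.05, 10.52 and 10.61 in the HFD arrays, against 9.19, 9.2 and 8.98 in the SD arrays, and Psmb2, a subunit of the catalytic core, at 8.53, 9.18 and 8.71 in the HFD arrays, against 8.07, 7.45 and 7.11 in the SD arrays. Their differences were 1.27 ± 0.32 (SE, adjusted p = 0.104) and 1.26 ± 0.32 (SE, adjusted p = 0.104). Psmb7, which carries the trypsin-like site of the core, was at 13.5, 14.29 and 14.21 in the HFD arrays, against 13.27, 12.5 and 12.56 in the SD arrays. Core, base and lid subunits were all represented among genes without overlap. Nfe2l1 itself was at 13.17, 13.38 and 13.31 in the HFD arrays, against 13.12, 13.12 and 13.02 in the SD arrays, the smallest difference of the list.

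The proteasome difference changed little with the muscle covariate. The median was 0.76, with 27 of 28 positive and 15 higher at an unadjusted p under 0.05 (3.83% of all genes). Only Nfe2l1 turned negative, at -0.05. Leaving out each cKO array gave medians between 0.65 and 0.85. All 28 genes were higher in HFD array 3 than in SD array 1, by a median of 0.73, where 8018 of all 17124 genes were. Without the 4 arrays richest in muscle, which leaves 1 SD array in each genotype, the median was 0.71. Heat shock proteins, which refold proteins, had a median of 0.71 over 17 genes, 6 of them higher at an unadjusted p under 0.05 (12% of all genes); with the muscle covariate the median was 0.57 and 1 gene was at that level. Hsph1, a large chaperone of that family, was at 12.31, 14.61 and 12.12 in the HFD arrays, against 9.81, 10.84 and 11.62 in the SD arrays, and Dnajb1, which brings substrates to Hsp70, at 9.06, 9.98 and 8.43 in the HFD arrays, against 8.29, 7.71 and 8.23 in the SD arrays. HFD array 2 was highest in both, and without it the list's median was 0.44. Ribosomal proteins of the cytosol, by contrast, had a median of 0.01 over 19 genes with none at an unadjusted p under 0.05.

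Genes of cholesterol synthesis were higher on HFD as well. Of 24 listed, 18 were tested and all 18 differences were positive, with a median of 1.63; 14 were higher at an unadjusted p under 0.05 (12% of all genes) and 13 did not overlap between diets (15.5%). The list averaged 8.92, 9.14 and 9.21 in the HFD arrays, against 7.84, 7.2 and 8.16 in the SD arrays. Insig1, which holds the sterol-sensing machinery in the endoplasmic reticulum and is itself induced by SREBP factors, was at 16.34, 16.81 and 16.92 in the HFD arrays, against 13.73, 12.22 and 14.33 in the SD arrays. The lowest HFD array was 2 units above the highest SD array, a difference of 3.26 ± 0.82 (SE, adjusted p = 0.104). Nsdhl, which removes methyl groups from sterol precursors, was at 11.01, 11.45 and 11.51 in the HFD arrays, against 8.79, 7.36 and 9.13 in the SD arrays and differed by 2.9 ± 0.67 (SE, adjusted p = 0.103). Fdps, farnesyl diphosphate synthase, was at 7.82, 9.11 and 8.62 in the HFD arrays, against 6.58, 6.17 and 6.81 in the SD arrays, and Lss, which closes the sterol rings, at 8.27, 8.45 and 8.53 in the HFD arrays, against 6.76, 5.95 and 7.19 in the SD arrays. Srebf2, which encodes the SREBP of cholesterol synthesis, was at 6.98, 6.98 and 6.79 in the HFD arrays, against 6.54, 6.05 and 6.5 in the SD arrays, a difference of 0.55 ± 0.19 (SE, adjusted p = 0.15). Sqle, squalene epoxidase, differed by 1.61 ± 0.54 (SE, adjusted p = 0.145). Fdft1, squalene synthase, was at 8.45, 7.48 and 6.82 in the HFD arrays, against 7.51, 7.16 and 7.61 in the SD arrays. It was among the members whose diets overlapped.

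The muscle covariate reduced this list's median to 0.89, with 16 of 18 differences positive and 5 higher at an unadjusted p under 0.05 (3.83% of all genes). These 5 were Nsdhl, Fdps, Lss, Insig1 and Hsd17b7, a reductase of sterol synthesis. Between HFD array 3 and SD array 1 the median was 1.53 and 15 of 18 genes were higher. Without the 4 muscle-rich arrays it was 1.26, and 14 genes were higher at an unadjusted p under 0.05, against 4.24% of all genes. In control mice the same genes had a median difference of 0.03, with 10 of 18 positive. Control SD array 2, poor in muscle, averaged 9.39 for the list, above control HFD arrays at 8.45, 8.56 and 9.08. Control SD arrays 1 and 3, rich in muscle, averaged 7.87 and 8.33, below every control HFD array. The control median, and the test between genotypes below, thus include 1 SD array that goes the other way. The difference between genotypes for Insig1 was 2.79 ± 1.16 (SE), with an unadjusted p of 0.0382 and an adjusted p of 1, and none of the 18 passed. At an unadjusted p under 0.05, 8 of 18 had a more positive diet effect in cKO mice, against 1.65% of all genes, and the list's median difference between genotypes was 1.27.

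The promoters of these genes are shown for the 3 sterol genes with the highest statistics that have an entry in the RefSeq promoter table (build GRCm38.p6), as windows of 300 bases across the annotated start, read 5′ to 3′ on the gene's strand. Capitals mark CCAAT on either strand (ATTGG when read on this strand), the letters bound by the factor NF-Y, a known partner of SREBP.
Nsdhl, chrX:72918271-72918570, + strand: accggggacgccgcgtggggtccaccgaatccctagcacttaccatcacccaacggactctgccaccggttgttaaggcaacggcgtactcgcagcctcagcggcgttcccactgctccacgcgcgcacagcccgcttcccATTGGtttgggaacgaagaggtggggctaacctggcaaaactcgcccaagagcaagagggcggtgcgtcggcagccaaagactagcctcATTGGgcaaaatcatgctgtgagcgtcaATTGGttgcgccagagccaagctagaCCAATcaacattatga
Lss, chr10:76531355-76531654, + strand: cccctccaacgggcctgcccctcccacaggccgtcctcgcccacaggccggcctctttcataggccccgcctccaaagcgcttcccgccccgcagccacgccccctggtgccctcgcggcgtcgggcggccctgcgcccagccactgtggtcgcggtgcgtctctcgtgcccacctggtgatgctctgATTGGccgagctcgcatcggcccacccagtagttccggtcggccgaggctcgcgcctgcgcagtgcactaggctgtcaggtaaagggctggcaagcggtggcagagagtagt
Insig1, chr5:28071162-28071461, + strand: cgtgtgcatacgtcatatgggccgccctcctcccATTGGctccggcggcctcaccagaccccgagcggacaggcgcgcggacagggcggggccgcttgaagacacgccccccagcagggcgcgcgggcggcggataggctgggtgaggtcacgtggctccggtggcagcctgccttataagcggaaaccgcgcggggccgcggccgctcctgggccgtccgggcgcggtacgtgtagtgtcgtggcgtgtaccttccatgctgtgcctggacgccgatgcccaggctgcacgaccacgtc
The box occurs 4 times in Nsdhl and once each in Lss and Insig1. It was found in all 14 tested sterol genes with a promoter entry, in 11 of 22 proteasome genes, and in 42.4% of all 10217 tested genes with an entry. A gene counts here if any of its windows holds the box. By window it was in 14 of 17 for sterol genes and in 37.4% for all genes. CCAAT was 1 of 10 patterns searched on both strands. A sterol element of 10 letters was in none of the 14 sterol genes and in 0.0489% of all genes, and the antioxidant core TGACNNNGC was in 3 of 22 proteasome genes and 16.8% of all genes. These matches describe letters in the window and do not show that a factor bound there.

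**Figure D3:**
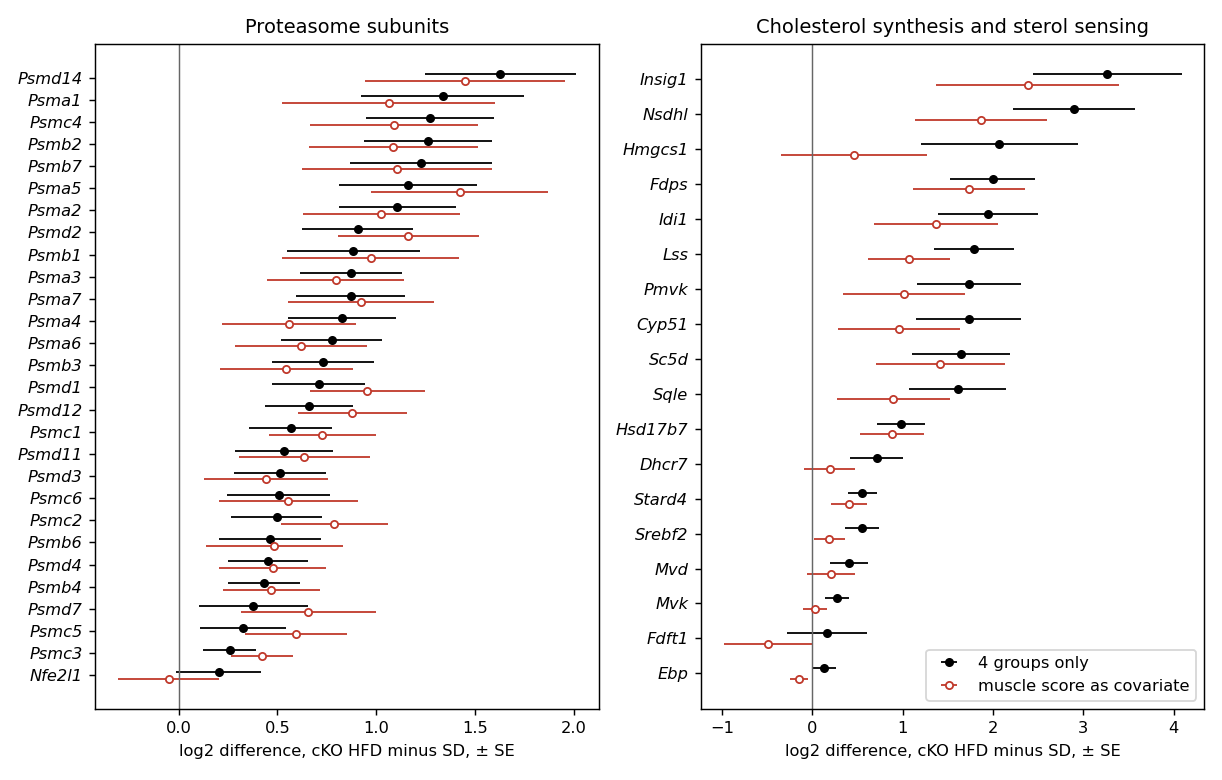
Log2 difference, cKO HFD minus cKO SD (x axis, with SE bars), of each proteasome gene (left) and each cholesterol gene (right) tested, from the fit on the 4 groups (filled) and with the muscle score as covariate (open). All filled points lie above 0; with the covariate Nfe2l1, Fdft1 and Ebp fall below 0.

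Fatty acid synthesis genes were higher, with wide spread among the SD arrays. Of 24 genes listed 22 were tested, with a median of 1.45, and 8 were higher at an unadjusted p under 0.05 (12% of all genes). Fads2, the delta-6 desaturase, was at 6.88, 6.63 and 7.0 in the HFD arrays, against 5.95, 5.7 and 5.8 in the SD arrays. Its difference of 1.02 ± 0.18 (SE, adjusted p = 0.0891) was tight, and 0.95 in the muscle-adjusted fit. Me1, malic enzyme, which supplies NADPH, was at 17.34, 17.98 and 18.27 in the HFD arrays, against 16.1, 15.6 and 17.52 in the SD arrays. Acly, which makes acetyl-CoA in the cytosol, was at 17.16, 17.33 and 17.4 in the HFD arrays, against 15.65, 12.06 and 16.07 in the SD arrays, and Fasn, fatty acid synthase, at 19.53, 19.67 and 19.71 in the HFD arrays, against 18.91, 16.8 and 19.28 in the SD arrays. SD array 2 was far below the others in both, so the spread is wide: Acly differed by 2.71 ± 0.97 (SE, adjusted p = 0.157). Scd1, the stearoyl-CoA desaturase, was at the ceiling on all 6 arrays and carries no comparison. With the muscle covariate the list's median was 0.51 and 3 genes were at an unadjusted p under 0.05, and without SD array 2 the median was 0.76.

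The coat proteins of lipid droplets differed in opposite directions. Plin2, which coats lipid droplets, was at 16.14, 16.95 and 17.37 in the HFD arrays, against 15.09, 13.46 and 15.36 in the SD arrays, and Plin4, another droplet coat protein, was lower, at 11.01, 10.68 and 11.15 in the HFD arrays, against 12.04, 12.98 and 12.34 in the SD arrays. Both pairs of groups were separate, with differences of 2.18 ± 0.76 (SE, adjusted p = 0.153) and -1.51 ± 0.36 (SE, adjusted p = 0.103), and of 1.14 and -0.98 with the muscle covariate. Angptl4, which inhibits lipoprotein lipase, was at 11.89, 11.19 and 10.7 in the HFD arrays, against 10.66, 7.52 and 8.77 in the SD arrays. For fatty acid uptake, lipolysis and oxidation as a whole, 30 of 33 differences were positive, the median was 1.3, and 5 genes were higher and 1 lower at an unadjusted p under 0.05, shares near those of all genes (12% and 10.9%) on the higher side and below on the lower. Without SD array 2 the median was 0.66, and without SD array 1 it was 1.96. With the muscle covariate the median was 0.04 and no gene was higher at that level. Rbp4, which carries retinol, was at 11.57, 13.8 and 14.31 in the HFD arrays, against 10.74, 11.29 and 11.7 in the SD arrays, and was higher in the muscle-adjusted fit by 3.05 (unadjusted p = 0.00527).

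The thermogenic and mitochondrial lists had positive medians that were near or below 0 with the muscle covariate. Brown adipocyte genes had a median of 1.12 over 23 genes, with none at an unadjusted p under 0.05. Elovl3, an elongase of brown fat, was at 11.89, 15.09 and 15.68 in the HFD arrays, against 10.3, 5.53 and 11.43 in the SD arrays, and Slc25a20, the carnitine carrier of mitochondria, at 17.7, 18.09 and 17.72 in the HFD arrays, against 17.57, 14.01 and 15.42 in the SD arrays, the 2 members without overlap. Nuclear-encoded subunits of the respiratory chain were positive in 45 of 46 genes with a median of 0.7, yet only Ndufb6 reached an unadjusted p under 0.05. Genes of the tricarboxylic acid cycle had a median of 1.01 over 17 genes. With the muscle covariate these medians were -0.24, -0.09 and 0.04. Without SD array 2 the raw medians were 0.49, 0.37 and 0.52, and without SD array 1 they were 1.83, 1.21 and 1.5. Between HFD array 3 and SD array 1, 2 of 46 respiratory chain genes and 6 of 23 brown adipocyte genes were higher on HFD. Esrrg, a nuclear receptor of oxidative tissues, was at 7.4, 7.21 and 6.87 in the HFD arrays, against 8.11, 7.6 and 7.12 in the SD arrays, and with the covariate its difference was -0.98 (unadjusted p = 0.0179). Ppargc1a, the coactivator of mitochondrial biogenesis, was at 10.99, 12.05 and 11.85 in the HFD arrays, against 12.27, 11.86 and 11.42 in the SD arrays with overlap.

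**Figure D4:**
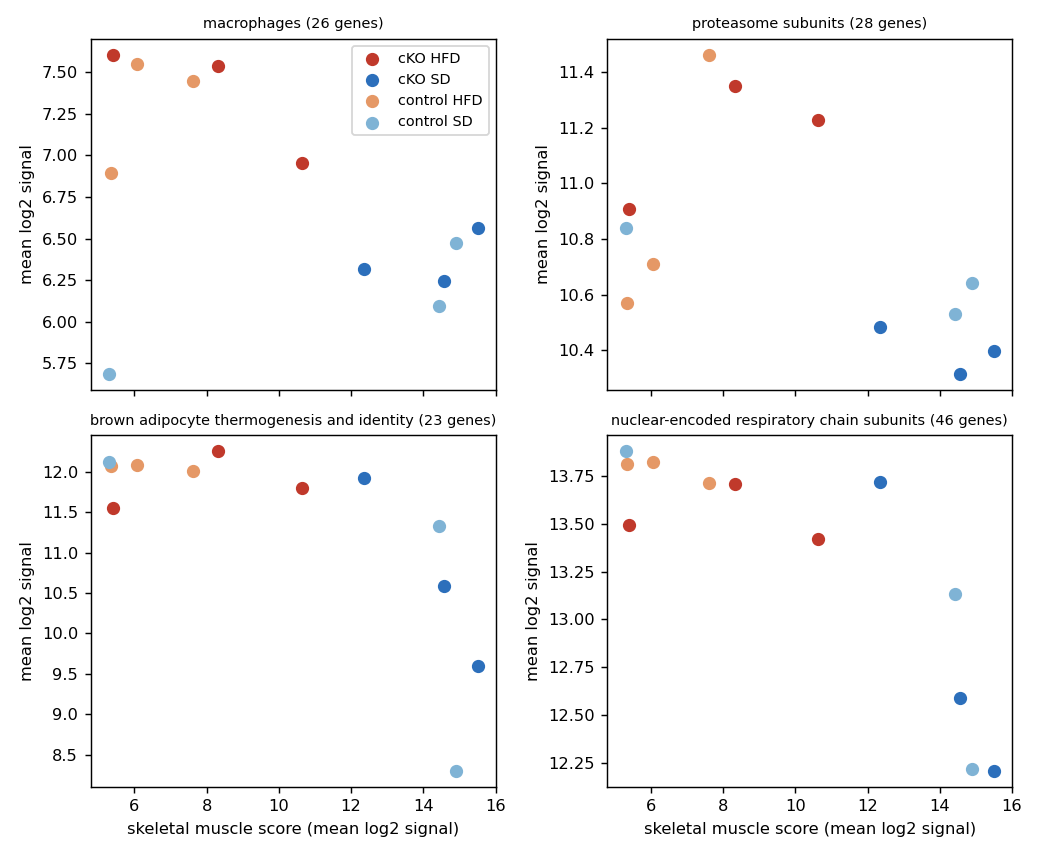
Mean log2 signal of 4 gene lists (y axes) against the skeletal muscle score (x axis, mean log2 signal) in the 12 brown fat arrays, coloured by group. Brown adipocyte and respiratory chain genes are lowest in the arrays richest in muscle, whereas macrophage genes are lowest, at 5.68, in control SD array 2 with a score of 5.3.

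Branched chain amino acid catabolism had 16 of 20 positive differences, where 56.5% of all genes did. The 2 genes at an unadjusted p under 0.05 were both negative. That share is near the 10.9% of all genes lower at that level, so their number is no result about the pathway. The list's median was 0.77, and -0.21 with the muscle covariate; without SD array 2 it was 0.35, and without SD array 1 it was 1.2. Bcat2, the mitochondrial aminotransferase that starts the pathway, was at 6.44, 6.59 and 6.57 in the HFD arrays, against 7.51, 8.24 and 7.8 in the SD arrays. Ppm1k, the phosphatase that activates the next enzyme complex, was at 7.98, 8.33 and 7.85 in the HFD arrays, against 10.19, 9.37 and 8.87 in the SD arrays. Both were lower in every HFD array than in any SD array, with differences of -1.32 ± 0.23 (SE, adjusted p = 0.0883) and -1.43 ± 0.31 (SE, adjusted p = 0.103). They kept unadjusted p of 0.00152 and 0.00524 with the covariate, at -0.87 and -1.51. Bckdha, a subunit of that complex, was at 12.15, 13.34 and 12.71 in the HFD arrays, against 12.71, 10.29 and 11.17 in the SD arrays, with SD array 2 lowest.

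The list of white adipocyte and adipokine genes had a median of 0.08 over 24 genes, with 15 positive. At an unadjusted p under 0.05, 3 were higher and 2 lower, against 12% and 10.9% of all genes. Nnat, neuronatin, an imprinted gene of the endoplasmic reticulum expressed in fat, showed the most negative difference among adipocyte genes. It was at 5.57, 5.83 and 5.63 in the HFD arrays, against 8.35, 10.57 and 10.27 in the SD arrays, with wide separation between the groups, and differed by -4.05 ± 0.77 (SE, adjusted p = 0.1). Control arrays were at 7.45, 7.49 and 5.77 on HFD and 11.48, 8.9 and 9.57 on SD, and the muscle-adjusted difference was -3.11 (unadjusted p = 0.00771). Retn, the adipocyte hormone resistin, was at 15.01, 13.47 and 14.25 in the HFD arrays, against 15.15, 16.89 and 17.14 in the SD arrays. Its muscle-adjusted difference was -0.3. Itih4, an acute phase protein, was at 8.85, 5.93 and 6.04 in the HFD arrays, against 4.6, 4.86 and 4.63 in the SD arrays, high above all in HFD array 1. Irs1, a docking protein of the insulin receptor, was at 7.92, 7.69 and 8.06 in the HFD arrays, against 8.21, 9.63 and 9.83 in the SD arrays, a difference of -1.33 ± 0.38 (SE, adjusted p = 0.113) and of -0.76 with the covariate. Its list, of insulin signalling and glucose uptake, had a median of -0.14 over 23 genes. In that list 4 genes were higher and 7 lower at an unadjusted p under 0.05, against 12% and 10.9% of all genes. With the covariate 2 were lower at that level, against 4.26% of all genes. Mcu, the calcium channel of mitochondria, was at 6.3, 6.72 and 6.58 in the HFD arrays, against 7.32, 7.88 and 7.35 in the SD arrays and differed by -0.98 ± 0.23 (SE, adjusted p = 0.103). Its list, of creatine and calcium cycling genes, had a median of -1.08, and of -0.28 with the covariate. The genes of that list are not among those of the muscle score.

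Stress response genes were higher in part. Of 26 oxidative stress and NRF2 target genes 21 were tested, with a median of 0.69 and 10 higher at an unadjusted p under 0.05 (12% of all genes). Gpx1, glutathione peroxidase, was at 15.55, 15.52 and 15.34 in the HFD arrays, against 14.82, 13.25 and 13.65 in the SD arrays, and Hmox1, the haem oxygenase, at 7.68, 7.32 and 7.22 in the HFD arrays, against 6.14, 6.59 and 6.3 in the SD arrays, both without overlap. Gsr, glutathione reductase, was at 11.16, 10.65 and 10.94 in the HFD arrays, against 9.48, 9.59 and 9.97 in the SD arrays, and with Hmox1 and Gstp1, a glutathione transferase, it kept an unadjusted p under 0.05 with the covariate. The list's median was 0.42 in that fit and 0.28 without the 4 muscle-rich arrays. Lox, the collagen cross-linking oxidase, was at 11.23, 10.6 and 10.61 in the HFD arrays, against 9.0, 8.92 and 8.92 in the SD arrays and differed by 1.86 ± 0.42 (SE, adjusted p = 0.103), while the matrix list had a median of -0.22 with 10 of 29 positive, and of 0.25 with 22 of 29 positive in the muscle-adjusted fit, so its direction depended on the fit. The core clock list had a median of -0.04 over 21 genes, with 1 higher and 5 lower at an unadjusted p under 0.05, against 12% and 10.9% of all genes. Tef, an output transcription factor of the clock, was at 6.76, 6.98 and 7.1 in the HFD arrays, against 7.57, 7.58 and 7.11 in the SD arrays, Per3 at 7.81, 7.42 and 7.52 in the HFD arrays, against 8.72, 8.31 and 7.69 in the SD arrays, and Cry2, a repressor, at 6.39, 6.41 and 6.53 in the HFD arrays, against 6.71, 6.92 and 6.71 in the SD arrays. Per3 and Cry2 were also lower in the muscle-adjusted fit, at differences of -1.11 and -0.55 (unadjusted p = 0.00269 and 0.00879), while Dbp, another output gene, differed by -1.59 without the covariate and by -0.36 with it. The labels give no time of day for the tissue.

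**Figure D5:**
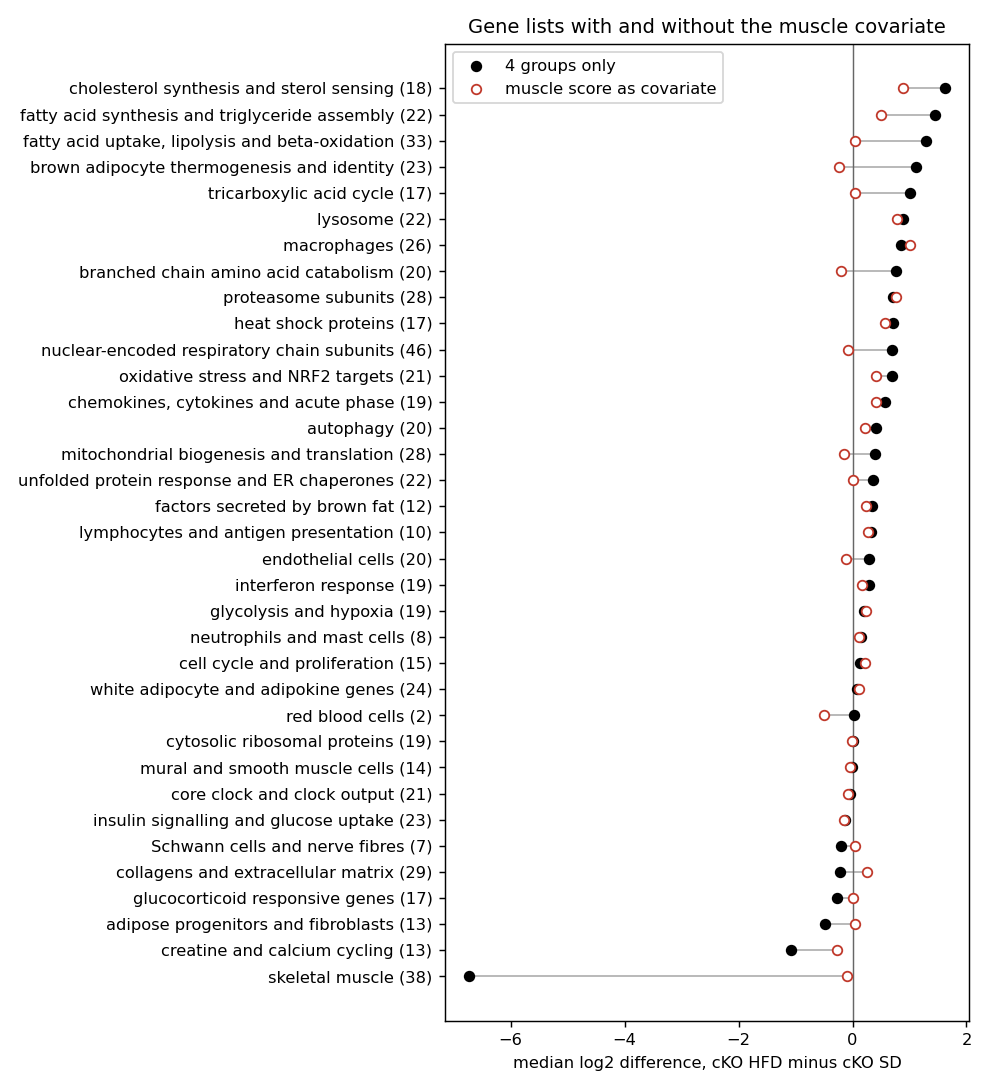
Median log2 difference, cKO HFD minus cKO SD (x axis), of the 35 gene lists (y axis, number of genes tested in brackets) from the fit on the 4 groups (filled) and with the muscle score as covariate (open). Macrophage, lysosome and proteasome medians stay between 0.72 and 1.0 in both, while brown adipocyte and respiratory chain medians move to -0.24 and -0.09; the muscle list lies near 0 with the covariate by construction, since its genes make up the score.

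HFD array 1 stood apart from the other HFD arrays in inflammatory and mast cell genes. Cpa3, the carboxypeptidase of mast cells, was at 12.91, 9.27 and 7.78 in the HFD arrays, against 9.2, 9.84 and 9.38 in the SD arrays. Cxcl13, which attracts B cells, was at 14.93, 9.58 and 8.72 in the HFD arrays, against 8.55, 9.11 and 9.27 in the SD arrays, and Ccl8, a monocyte chemokine, at 9.94, 5.31 and 5.1 in the HFD arrays, against 4.54, 4.72 and 4.28 in the SD arrays. Only HFD array 1 was above 12 and 14 in the first pair and above 9 in the third. Lcn2, lipocalin 2 of the acute phase, was at 7.44, 4.89 and 5.31 in the HFD arrays, against 4.15, 3.96 and 4.1 in the SD arrays, and Hp, haptoglobin, at 17.48, 15.81 and 16.14 in the HFD arrays, against 14.88, 14.9 and 13.7 in the SD arrays, so these were higher in all 3 HFD arrays than in any SD array. The chemokine and acute phase list had a median of 0.57 over 19 genes with 7 higher at an unadjusted p under 0.05 (12% of all genes), and 0.32 without HFD array 1; with the muscle covariate the median was 0.41 and 2 genes were at that level. The neutrophil and mast cell list, with 8 of 16 genes tested, had a median of 0.15, 0.12 with the covariate, and -0.32 without that array. Of 11 red blood cell genes only Alas2 and Bpgm were tested, and Alas2, which starts haem synthesis in red cells, was at 10.97, 7.72 and 7.11 in the HFD arrays, against 7.51, 7.49 and 8.51 in the SD arrays, again with HFD array 1 high.

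The diet effect was set against that of control mice in 1 test of the difference between genotypes. No gene passed (0%, lowest adjusted p of 1), and 283 genes (1.65%) had a more positive and 366 (2.14%, 3.79% together) a more negative effect in cKO mice at an unadjusted p under 0.05. Tnc, tenascin C, was at 4.04, 3.97 and 4.18 in the HFD arrays, against 3.97, 4.22 and 4.06 in the SD arrays, and at 4.99, 4.87 and 4.85 in control HFD and 4.14, 4.04 and 4.08 in control SD arrays. Outside the control HFD arrays Tnc lay near the filter level of 4.1275, and it passed that filter only through those arrays. The overlap of the cKO groups is therefore one of low signals. The cKO groups overlapped while the control HFD arrays were higher, a difference between genotypes of -0.83 ± 0.13 (SE, adjusted p = 1). Rassf9 and Meox1, a homeobox factor, had the same form, with differences between genotypes of -1.76 and -1.26. Ifit3b, an interferon-induced gene, was at 6.66, 6.63 and 6.42 in the HFD arrays, against 6.12, 6.22 and 6.73 in the SD arrays, and at 5.8, 6.0 and 5.61 in control HFD and 6.69, 6.62 and 7.12 in control SD arrays. Acsl4, which activates arachidonic acid, was at 10.16, 10.12 and 10.13 in the HFD arrays, against 10.06, 10.31 and 10.04 in the SD arrays, with a difference of -0.77 in controls. Among macrophage genes, Mmp12 and Itgax, the integrin CD11c, had less positive diet differences in cKO mice than in controls, neither past the threshold, with differences between genotypes of -2.29 ± 0.78 and -0.76 ± 0.26 (SE, unadjusted p = 0.0151 and 0.0146, adjusted p = 1 and 1). Cd68, Ctss and Mpeg1 differed by -0.37, -0.21 and -0.15 between genotypes. Median diet differences in control mice were 0.92 for macrophage, 0.72 for lysosomal and 0.33 for proteasome genes. In these lists 22 of 26, 19 of 22 and 22 of 28 genes were positive in controls. Proteasome genes had a median difference of 0.51 between genotypes, with Psmc6, an ATPase of the base, at 1.39 ± 0.37 (SE, unadjusted p = 0.00389, adjusted p = 1).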

How the data were processed

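Brown fat RNA of 12 mouse samples was measured on 1-colour arrays. The deposited values are log2 signals per probe set, for which the submitters' processing notes name Affymetrix Expression Console 1.1.1 and PLIER 2.0; the normalization and any further step by the authors are in none of the sources used here. Of 72688 features, 30604 had 1 gene symbol, 2146 several and 39938 none (array controls included); 827 symbols were updated, and each gene kept its feature of highest mean. Features whose mean over the 12 arrays reached 4.1275, the median of all feature means, were kept, which left 17124 genes. limma 3.58.1 in R 4.3.3 fitted the means of the 4 groups, with Benjamini-Hochberg adjustment and a threshold of 0.05. The members and gene lists were chosen with earlier results of these data known, which gives list counts no independent weight. Named genes are the 8 highest and lowest statistics of the fit and of the muscle-adjusted fit, 6 each of the difference between genotypes, and up to 8 members of each of 35 lists, without predicted genes and small RNAs. Otop1, Lyz2, C1qa, Mmp12, Gpnmb, Csf1r, Mrc1, Cd163, Lipa, Tfeb, Nfe2l1, Srebf2, Fdft1, Esrrg, Ppargc1a, Cxcl13, Ccl8 and Psmc6, list members too, were named after their values were seen. The number of arrays limits the precision. The code was tested on simulated data. Alternatives covered normalization, filter, pseudocount, prior, array weights, covariate, block and left-out arrays.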

Additional observations from a re-analysis of the deposited data

Results flagged for a closer look

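Only named genes were searched here, and these include the 6 highest and 6 lowest statistics of the difference between genotypes. That choice favours opposite diet differences, and the share over all genes was not counted. In 4 of the named genes the diets did not overlap in either genotype, with opposite directions in cKO and control mice. The difference between genotypes was tested in each, and none passed. Gldc, glycine decarboxylase, was at 4.63, 4.41 and 4.72 in the HFD arrays, against 4.04, 4.19 and 4.37 in the SD arrays, and at 3.9, 3.87 and 3.89 in control HFD and 4.33, 4.0 and 4.25 in control SD arrays, a difference between genotypes of 0.69 (limma, unadjusted p = 0.00311, adjusted p = 1). Gldc lay near the filter level of 4.1275 on all arrays and passed it only through the cKO HFD arrays, so its directions are those of low signals. Mip, the lens aquaporin, had a difference between genotypes of 0.70 and Zfp420, a zinc finger protein, of 0.572, with unadjusted p of 0.0033 and 0.00156 and an adjusted p of 1 in both. Stmn2, a microtubule protein of neurons, was at 5.7, 5.8 and 5.84 in the HFD arrays, against 6.09, 5.97 and 6.03 in the SD arrays, and at 6.04, 6.16 and 5.81 in control HFD and 5.56, 5.8 and 5.54 in control SD arrays, a difference of -0.616 (adjusted p = 1).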

How the results depend on the processing

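No gene passed for the cKO diet effect in the fit reported, at an unadjusted count of 3920, and none passed with a replicate block, the muscle covariate, a prior that was robust and trended, averaged features, a pseudocount of 16 or the filter removed. Quantile normalization gave 13 genes, all higher, the fit on the compared groups alone 1, and array weights 8643; those weights did not converge. Without the 4 arrays of highest muscle score, an alternative chosen after seeing the data that leaves 1 SD array in each genotype and assumes it varies like the other groups, 4 genes passed, among them Pltp at 2.37 (adjusted p = 0.0231). Leaving out 1 array at a time gave 0 to 1183 genes, the highest without cKO SD array 1 and 210 without control SD array 2; the cause was not tested. The difference between genotypes gave 0 genes in the fit reported (649 at an unadjusted p under 0.05), 1 without the 4 muscle-rich arrays, and 0 to 2 with 1 array left out. The muscle score difference lay between -7.28 and -4.66 with 1 array left out, and the replicate block kept it at -6.02 with an exact p of 0.25. Same-numbered arrays correlated in their deviations at 0.203, -0.218 and 0.187, so numbers were not taken as pairs; with the replicate block 0 genes passed for the diet effect and for the difference between genotypes. For genes named by their statistics and for Arntl, Ucp1, Lep and Adipoq, 1011 values under alternatives kept their sign and side of the threshold, 75 passed it only there, and 24 did not keep their sign, none of these past the threshold; Med13l was among them.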

Other observations

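Cell cycle genes had a median difference of 0.12 over 15 genes, with 1 higher at an unadjusted p under 0.05 (12% of all genes). With the muscle covariate the median was 0.22, and Mki67, Ccne1, Mcm3 and Kif11 were higher at that level (3.83% of all genes). Mki67, a marker of dividing cells, was at 5.63, 5.35 and 6.3 in the HFD arrays, against 5.29, 5.62 and 5.27 in the SD arrays, with overlap. Ccne1, which drives entry into DNA synthesis, was at 4.57, 4.81 and 4.57 in the HFD arrays, against 4.28, 3.99 and 4.14 in the SD arrays. Autophagy genes had 10 of 20 members higher at an unadjusted p under 0.05 (12% of all genes) and a median of 0.41, against 1 of 20 and a median of 0.22 with the muscle covariate. That gene was Sqstm1, the cargo receptor p62, at 10.19, 11.03 and 11.15 in the HFD arrays, against 9.63, 11.5 and 10.8 in the SD arrays, with overlap.

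Among genes named by the muscle-adjusted fit, Cd44, the hyaluronan receptor of leukocytes, was at 6.5, 6.82 and 6.51 in the HFD arrays, against 5.51, 5.89 and 5.69 in the SD arrays and differed by 0.92 ± 0.22 (SE, adjusted p = 0.103). Sirpa, an inhibitory receptor of phagocytes, was at 7.81, 8.05 and 8.09 in the HFD arrays, against 6.86, 7.26 and 7.4 in the SD arrays, and Lcp1, the actin bundler of leukocytes, at 7.76, 8.01 and 8.04 in the HFD arrays, against 6.45, 6.47 and 6.3 in the SD arrays. The diets did not overlap in Cd44, Sirpa or Lcp1, and the muscle-adjusted differences were 1.33, 1.13 and 1.81.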
